A study of Mus musculus with 8 samples.

Results

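The 9 genes described here encode subunits of the AP-1 transcription factor and their close relatives: the Fos family members Fos, Fosb, Fosl1 and Fosl2, the Jun family members Jun, Junb and Jund, and the related factors Atf3 and Maff. They were chosen by name from the 41457 genes of each deposited table. The tables come from keratinocytes (KCs), the epithelial cells of the epidermis, prepared from the tails of adult wild-type C57BL/6 mice, left untreated, grown in serum-free low-calcium medium and split when nearly confluent. KCs cultured for 1 week (n = 4) were compared with KCs cultured for 3 weeks (n = 4) by sequencing of poly(A) RNA. The longer culture may also mean more splitting, so time and passage cannot be told apart. The cells are a mixed culture in which fewer expressing cells and less RNA per cell cannot be told apart.

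AP-1 factors are dimers of basic leucine zipper proteins. Jun proteins pair with each other or with Fos proteins, whereas Fos proteins need a Jun partner, and the dimers bind the TPA response element or the related cyclic AMP response element. Mitogen-activated protein kinases (MAPKs), growth factors and stress switch many of these genes on within minutes, and AP-1 sites are found in the control regions of many epidermal differentiation genes.

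Promoter sequences show which of these control letters lie next to the genes. RefSeq promoter windows on GRCm38.p6 were at hand for 8 of the 9 genes, with 3 start sites for Maff, and Fosl1 had no entry. The 250 bases before each start were searched on both strands for the TPA response element TGANTCA, the cyclic AMP response element TGACGTCA, the EGR site GCGNGGGCG and the CArG box bound by serum response factor. TGACG, the core of the cyclic AMP response element and therefore also found inside it, was added after the windows had been read. The TPA response element is present in 6.75% of all 32851 windows, the cyclic AMP response element in 1.55%, the EGR site in 4.70%, the CArG box in 1.47% and the TGACG core in 17.8%. No member window held the TPA response element or the CArG box, and bases farther from the starts were not searched. The EGR site was found in Fosb, Fosl2 and the second Maff window, the complete cyclic AMP response element in the second Maff window, and the TGACG core in Fos, Fosb, Junb, Atf3 and Maff. The windows of Jun and Jund held none of these letters, and the Jund window lies upstream of the gene span given in the deposited tables. The windows of Atf3 and Fosl2 and the second Maff window lie inside their gene spans, so they do not precede the first base of those spans. Below are the windows of Atf3 and Fosl2, which differed between the times, and of Fos, the founding member. The second window of Maff is also given, as it held the complete cyclic AMP response element. Each is written 5′ to 3′ and ends at the base before the start, with matches in capitals.
Atf3 (chr1:191183334-191183583, minus strand): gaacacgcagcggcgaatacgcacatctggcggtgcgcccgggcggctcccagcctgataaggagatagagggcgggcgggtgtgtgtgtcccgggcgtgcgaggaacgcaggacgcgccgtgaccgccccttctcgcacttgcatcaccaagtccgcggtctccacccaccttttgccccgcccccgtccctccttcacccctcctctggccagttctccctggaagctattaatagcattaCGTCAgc
Fosl2 (chr5:32136222-32136471, plus strand): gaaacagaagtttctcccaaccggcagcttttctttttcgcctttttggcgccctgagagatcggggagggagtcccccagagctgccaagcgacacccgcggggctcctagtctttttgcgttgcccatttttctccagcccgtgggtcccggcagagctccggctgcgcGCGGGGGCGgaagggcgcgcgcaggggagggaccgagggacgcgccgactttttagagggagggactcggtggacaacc
Fos (chr12:85473640-85473889, plus strand): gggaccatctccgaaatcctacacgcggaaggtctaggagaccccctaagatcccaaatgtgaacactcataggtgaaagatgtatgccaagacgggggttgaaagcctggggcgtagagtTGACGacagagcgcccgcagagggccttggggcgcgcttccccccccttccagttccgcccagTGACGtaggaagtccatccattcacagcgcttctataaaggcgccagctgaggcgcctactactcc
Maff, second start (chr15:79347270-79347519, plus strand): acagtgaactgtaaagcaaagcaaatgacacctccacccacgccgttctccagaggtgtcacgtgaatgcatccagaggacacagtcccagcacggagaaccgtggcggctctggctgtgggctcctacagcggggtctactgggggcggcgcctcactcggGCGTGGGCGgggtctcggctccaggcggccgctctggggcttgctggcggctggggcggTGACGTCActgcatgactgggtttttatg
The Atf3 match lies 7 to 3 bases before the start, on the opposite strand, and the Fosl2 match lies 79 to 71 bases before it. These matches are letters only, since binding was not measured in these cells.

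The libraries held between 13896807 and 20026084 exon reads, and the members received between 56 (Fosb) and 5431 (Junb) reads per sample. RPKM scales reads to exon length and to the mapped reads of a sample, and it permits comparison of levels between genes. Fold changes are log2 values of 3 weeks over 1 week from edgeR, after TMM scaling for library composition, with p-values of its quasi-likelihood test adjusted over all tested genes. TMM factors were 1.03 to 1.07 at 1 week and 0.853 to 0.997 at 3 weeks, and the median of all genes was 0.03 after TMM and -0.16 on the log2(RPKM + 0.1) scale, so falls appear larger in RPKM. The lowest factor belonged to replicate 3 at 3 weeks, which also had the lowest RPKM of its group for 7 of the 9 members, and for 5 of 9 after TMM scaling. The KC identity was visible in the 5 basal KC markers, which summed to 12113 to 14296 RPKM at 1 week and 6985 to 8207 RPKM at 3 weeks, with Krt5 and Itga6 lower by test and Krt14, Trp63 and Itgb4 not passing it. Markers of other cells were low: the 6 fibroblast markers summed to at most 4.65 RPKM, the 5 immune markers to 4.04 RPKM (with Cd207 at 0) and the 4 endothelial markers to 0.551 RPKM. The 5 melanocyte markers summed to 3.18 to 20.9 RPKM at 1 week and 1.26 to 5.50 RPKM at 3 weeks, and 4 smooth muscle markers to 1.19 to 3.17 and 12.9 to 33.0 RPKM, mainly through Cnn1, an actin-binding protein. Their part in the results below was not tested.

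Of the 9 members, Atf3 was lower and Fosl2 and Jund were higher after 3 weeks, while Fos, Fosb, Fosl1, Jun, Junb and Maff did not pass the test. All 9 passed the filter on low counts. Among all 12590 tested genes 32.8% passed, 15.7% as higher and 17.0% as lower, so that 3 of 9 members is a share near that of all genes and the number itself is no result about AP-1. The median log2 fold change of the members was -0.07.

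**Figure D1:**
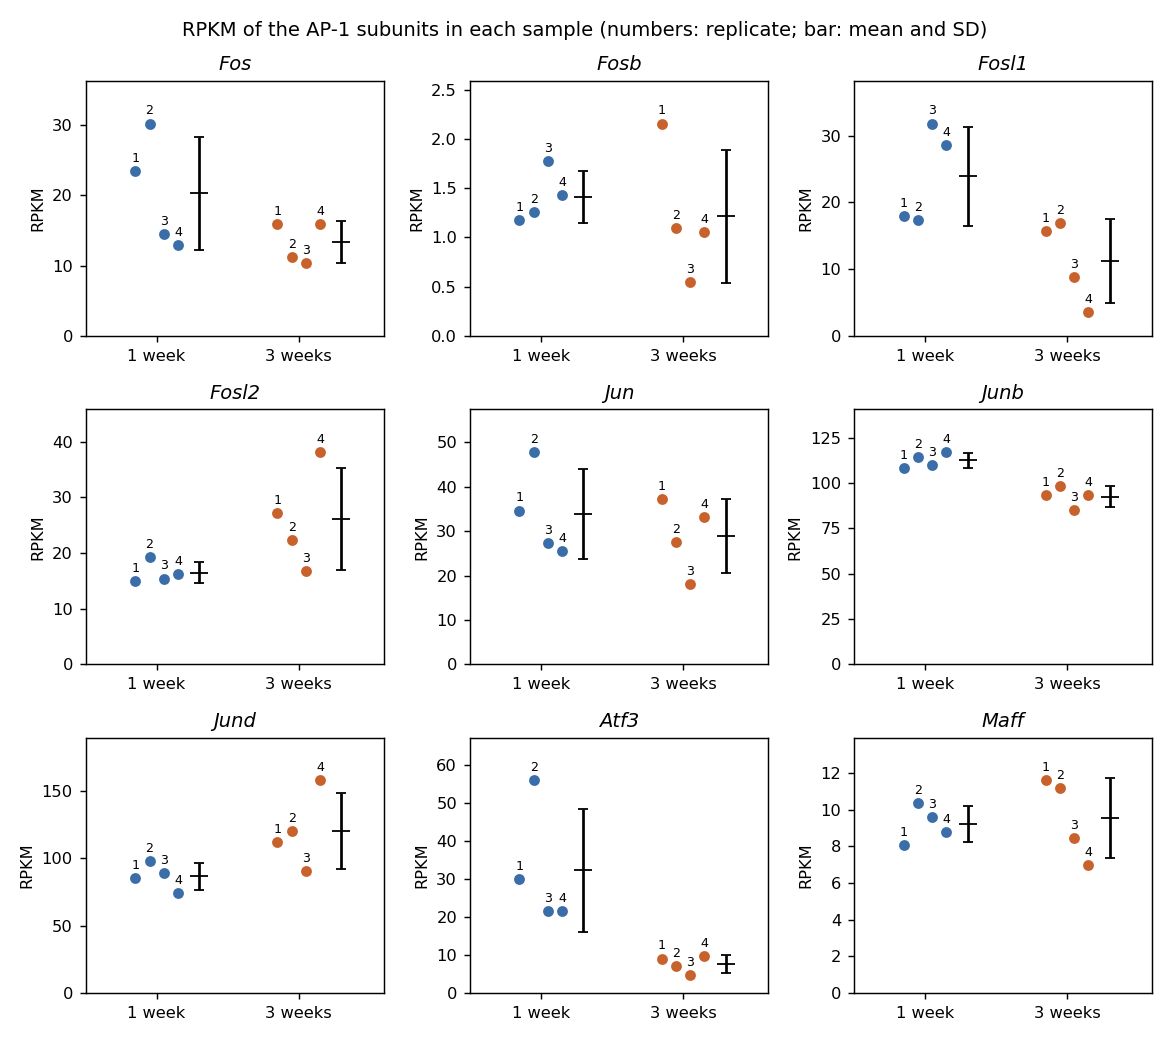
RPKM (vertical axes, starting at 0) of each AP-1 subunit in the 4 samples at 1 week (blue) and the 4 samples at 3 weeks (orange); numbers are replicates, and black bars give mean and SD. Atf3 is at or above 21.5 RPKM in every 1-week sample and at or below 9.58 RPKM in every 3-week sample, whereas the groups of Fos, Fosb, Fosl2, Jun, Jund and Maff overlap in RPKM.

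Atf3 (ENSMUSG00000026628, chromosome 1, 191170296 to 191218039, minus strand) encodes a stress-induced leucine zipper factor that often acts as a repressor. Its RPKM in replicates 1 to 4 was 29.9, 55.9, 21.5 and 21.6 at 1 week and 9.04, 7.12, 4.58 and 9.58 at 3 weeks. The groups did not overlap, and replicate 2 at 1 week was the highest sample. The mean was 32.2 ± 16.2 RPKM (SD, n = 4) at 1 week and 7.58 ± 2.26 RPKM (SD, n = 4) at 3 weeks. After TMM scaling Atf3 fell 3.83-fold, a log2 fold change of -1.94 (SE 0.34, 95% interval -2.70 to -1.18, adjusted p = 0.00289 in edgeR). Introns held 4.24% of the reads on the gene, more than in any of the other 8 members.

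Fosl2 (ENSMUSG00000029135, chromosome 5, 32135801 to 32157842, plus strand) encodes Fra-2, a Fos protein that lacks the strong activation domain of Fos. Its RPKM in replicates 1 to 4 was 15.0, 19.2, 15.4 and 16.2 at 1 week and 27.2, 22.4, 16.7 and 38.2 at 3 weeks. The 1-week samples lay close together, and replicate 3 at 3 weeks fell within their range. Fosl2 rose by a log2 fold change of 0.81 (SE 0.21, 95% interval 0.34 to 1.28, adjusted p = 0.0162 in edgeR), a 1.75-fold difference. Without replicate 1 at 1 week the adjusted p was 0.0628 in edgeR.

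Jund (ENSMUSG00000071076, chromosome 8, 70698949 to 70700616, plus strand) encodes the Jun protein that is widely present in resting cells. In replicates 1 to 4 its RPKM was 85.2, 97.5, 89.3 and 74.0 at 1 week and 112, 120, 90.2 and 158 at 3 weeks. As for Fosl2, replicate 3 at 3 weeks lay within the 1-week range and replicate 4 was the highest sample. Jund rose by a log2 fold change of 0.63 (SE 0.15, 95% interval 0.28 to 0.97, adjusted p = 0.0136 in edgeR), a 1.54-fold difference. Without replicate 1 at 1 week the adjusted p was 0.0527 in edgeR. The share of Jund reads that mapped to a single place was 44.2%, so its level is uncertain, and with these reads alone the log2 fold change was 0.63 (adjusted p = 0.00675 in edgeR). Limma on log2(RPKM + 0.1), which lacks the TMM correction, gave 0.60 for Fosl2 (adjusted p = 0.0708) and 0.45 for Jund (adjusted p = 0.0752), and neither passed there.

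**Figure D2:**
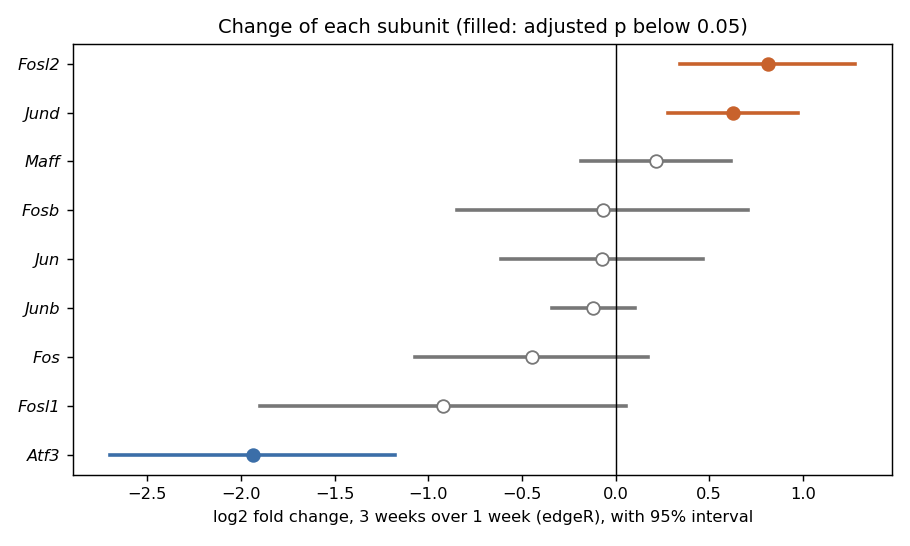
Log2 fold change of each subunit, 3 weeks over 1 week (horizontal axis), from edgeR with its 95% interval; filled points passed an adjusted p of 0.05. Atf3 stands at -1.94, Jund at 0.63 and Fosl2 at 0.81, and the intervals of the 6 open points include 0.

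The remaining Jun proteins gave no call. Junb (ENSMUSG00000052837, chromosome 8, 84974484 to 84978718, minus strand), a Jun protein that can oppose Jun in growth control, had 108, 115, 110 and 117 RPKM in replicates 1 to 4 at 1 week and 93.4, 98.6, 85.0 and 93.3 RPKM at 3 weeks. Its samples varied least, with a coefficient of variation of 3.56% at 1 week and 6.09% at 3 weeks, and the groups did not overlap. After TMM scaling the log2 fold change was only -0.12 (SE 0.10, 95% interval -0.34 to 0.10, adjusted p = 0.385 in edgeR). On the log2(RPKM + 0.1) scale it was -0.28 (adjusted p = 0.0441 in limma), on which all genes had a median of -0.16. Junb overlaps 351 bases of Prdx2 on the other strand, a peroxidase gene that was higher at 3 weeks (log2 fold change 0.86, adjusted p = 0.0178 in edgeR), and reads in the overlap cannot be assigned without strand. Jun (ENSMUSG00000052684, chromosome 4, 95049034 to 95052222, minus strand), the main target of the JNK kinases, lay between 25.6 and 47.8 RPKM at 1 week and between 18.0 and 37.3 RPKM at 3 weeks. These ranges overlapped widely, and its log2 fold change of -0.07 (95% interval -0.61 to 0.47, adjusted p = 0.842 in edgeR) changed sign when replicate 2 at 1 week (0.12) or replicate 3 at 3 weeks (0.05) was left out. Of the Jun reads, 77.8% mapped to a single place.

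Among the other Fos proteins, Fosl1 (ENSMUSG00000024912, chromosome 19, 5447703 to 5455945, plus strand) had the largest difference. It encodes Fra-1, whose gene is itself a target of AP-1. Its RPKM in replicates 1 to 4 was 17.9, 17.3, 31.8 and 28.6 at 1 week and 15.8, 16.9, 8.84 and 3.55 at 3 weeks. Every 3-week sample lay below every 1-week sample, by little in replicates 1 and 2 and by much in replicates 3 and 4. The log2 fold change was -0.92 (SE 0.43, 95% interval -1.90 to 0.05, adjusted p = 0.134 in edgeR), so a fall of more than 3-fold and no change are both within the interval. Fos (ENSMUSG00000021250, chromosome 12, 85473890 to 85477273, plus strand), the classic immediate early gene, had 23.5, 30.2, 14.5 and 12.9 RPKM at 1 week and 15.9, 11.2, 10.4 and 15.9 RPKM at 3 weeks. The groups overlapped, with replicates 1 and 2 at 1 week above all others, and the log2 fold change was -0.45 (95% interval -1.07 to 0.17, adjusted p = 0.244 in edgeR). Fosb (ENSMUSG00000003545, chromosome 7, 19302696 to 19310051, minus strand), which is induced like Fos, was the weakest member, with 1.18 to 1.77 RPKM at 1 week and 0.546 to 2.16 RPKM at 3 weeks. Its log2 fold change was -0.07 (95% interval -0.84 to 0.70, adjusted p = 0.899 in edgeR), and its sign turned when replicate 3 at 1 week (0.05), replicate 3 at 3 weeks (0.12) or replicate 4 at 3 weeks (0.01) was left out. Maff (ENSMUSG00000042622, chromosome 15, 79346621 to 79359076, plus strand), a small Maf protein without an activation domain of its own, had 8.10 to 10.4 RPKM at 1 week and 7.01 to 11.6 RPKM at 3 weeks. Its log2 fold change was 0.22 (95% interval -0.18 to 0.62, adjusted p = 0.380 in edgeR).

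Groups that do not overlap were found in RPKM for Fosl1, Junb and Atf3, 3 of 9 members against 37.0% of all tested genes. After TMM scaling, they were found in CPM for Fosl2, Junb, Jund and Atf3, 4 of 9 members against 34.9% of all tested genes. Junb and Atf3 are on both lists, and neither share stands far from that of all genes.

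The order of levels was led by Junb and Jund at both times. At 1 week the mean RPKM fell from Junb (113) to Jund (86.5), Jun (33.9), Atf3 (32.2), Fosl1 (23.9), Fos (20.3), Fosl2 (16.5), Maff (9.22) and Fosb (1.41). The ranges of neighbours overlapped from Jun to Fosl2, so the order within that stretch is not resolved. At 3 weeks the order was Jund (120), Junb (92.6), Jun (29.0), Fosl2 (26.1), Fos (13.4), Fosl1 (11.3), Maff (9.56), Atf3 (7.58) and Fosb (1.21). Jund was above Junb in 4 of 4 samples at 3 weeks and below it in 4 of 4 samples at 1 week, although their ranges overlapped at 3 weeks. Only 44.2% of Jund reads mapped to a single place, against 100% of Junb reads. The order of this pair at 3 weeks therefore depends on how the shared reads were assigned, which was not tested. At 3 weeks the ranges of Jun and Fosl2 overlapped, as did those of neighbours from Fos to Atf3, so the order within these stretches is not resolved either.

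Within each sample the make-up of a family does not depend on how libraries were scaled. The Jun family shares and the ratio of Junb to Jund do depend on how reads that map to several places were assigned. Fosl2 supplied 24.3% to 28.3% of the summed Fos family RPKM at 1 week and 43.4% to 65.0% at 3 weeks, without overlap. Fosl1 supplied 25.5% to 50.1% at 1 week and 6.05% to 32.8% at 3 weeks, and Fos 21.9% to 44.4% and 21.7% to 28.5%, both with overlap. The ratio of Fosl1 to Fosl2 RPKM was 0.902 to 2.06 at 1 week and 0.0930 to 0.754 at 3 weeks. In the Jun family, Jund supplied 34.2% to 39.4% at 1 week and 46.2% to 55.5% at 3 weeks, and Junb 44.1% to 54.0% and 32.9% to 44.0%. The ratio of Junb to Jund RPKM was 1.18 to 1.58 at 1 week and 0.592 to 0.942 at 3 weeks. The sums themselves overlapped, with 62.1 ± 4.71 RPKM (SD, n = 4) and 52.0 ± 11.0 RPKM (SD, n = 4) for the Fos family and 233 ± 18.8 and 242 ± 37.3 RPKM (SD, n = 4 each) for the Jun family. Fosl2 and Jund thus took larger shares of their families at 3 weeks, while the ranges of the sums overlapped. These shares are descriptions and were not tested.

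**Figure D3:**
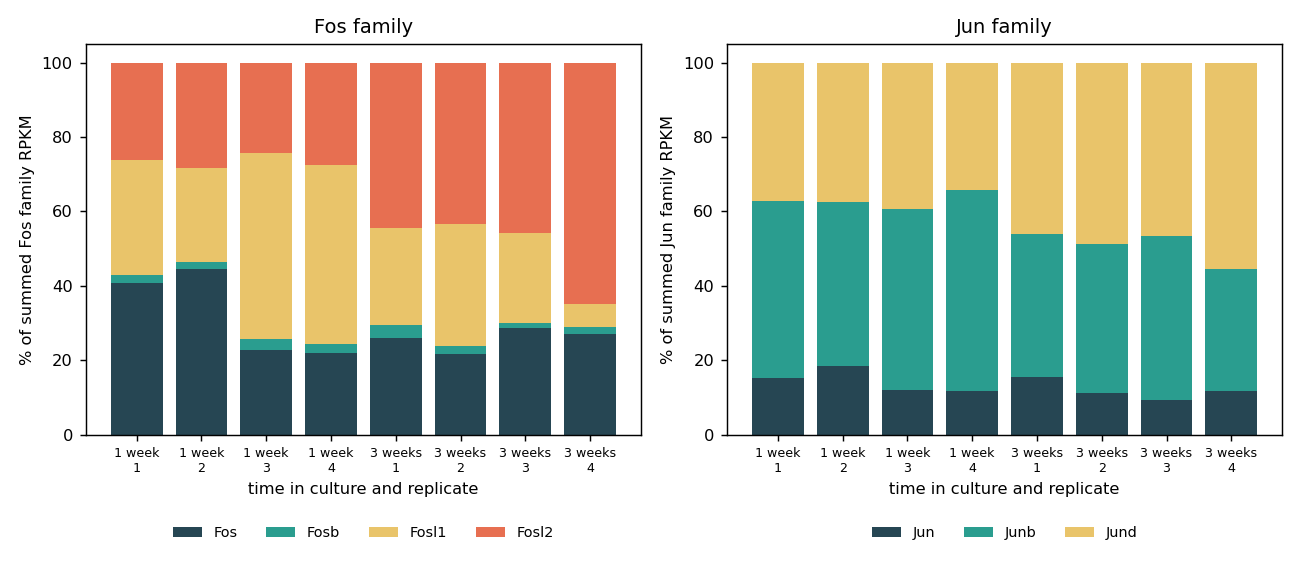
Share of each gene in the summed RPKM of the Fos family (left) and Jun family (right), in percent, for each sample by time and replicate. Fosl2 takes 24.3% to 28.3% at 1 week and 43.4% to 65.0% at 3 weeks, and Jund takes 34.2% to 39.4% and 46.2% to 55.5%.

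For each member that changed, the genes with the most similar profile were sought among 8735 other genes of at least 10 mean CPM, by the root mean square difference of log2 CPM over the 8 samples after centring. Atf3 was closest to Stambpl1 (0.26 log2 units) and Rapgef5 (0.30 log2 units). Fosl2 was closest to Nhlrc3 (0.07 log2 units) and 9930021J03Rik (0.10 log2 units), and Jund to Phf1 (0.09 log2 units) and Mpp5 (0.09 log2 units). The median difference over all compared genes was 1.08 log2 units for Atf3, 0.57 for Fosl2 and 0.49 for Jund.

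Other leucine zipper factors can pair or compete with AP-1. Of 15 listed genes, 12 were tested, 0 rose and 1 fell in edgeR (8.33% called, against 32.8% of all genes), with a median log2 fold change of 0.07. At an unadjusted p under 0.05, 2 rose and 2 fell, and DESeq2 called 1 as higher. The gene that fell was Atf4, the stress factor known to switch on Atf3, from 191 to 66.1 mean RPKM (log2 fold change -1.36, SE 0.23, adjusted p = 0.00254 in edgeR). As for Atf3, its groups did not overlap, with 126 to 247 RPKM at 1 week and 54.1 to 78.1 RPKM at 3 weeks. Without replicate 3 at 3 weeks 2 of these genes rose, and without replicate 3 at 1 week 2 fell.

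Immediate early genes, which share signals with Fos, moved in both directions. Of 30 genes, 26 were tested, 5 rose and 5 fell, with a median log2 fold change of -0.14. This is 38.5% of those tested, against 32.8% of all genes, so the share is near that of all genes. Ctgf, a matricellular growth regulator, rose from 188 to 745 mean RPKM (log2 fold change 2.15, adjusted p = 0.000872 in edgeR). Lower were Egr3 (-2.92), Nr4a1 (-1.35), Myc (-1.05) and Csrnp1 (-0.74), and also Ier2 (-0.59, adjusted p = 0.0337 in edgeR). Egr3 was weak and variable, with 0.536 to 3.74 RPKM at 1 week and 0.0773 to 0.318 RPKM at 3 weeks. It had as few as 5 exon reads in a sample. Only 8.83% of Csrnp1 reads and 66.0% of Ctgf reads mapped to a single place, so their levels are uncertain. With such reads alone, 4 genes of this list rose and 4 fell in edgeR. Egr1, whose protein binds the EGR site, lay between 15.7 and 25.0 RPKM at 1 week and between 4.07 and 18.6 RPKM at 3 weeks. Its difference of -0.72 on the log2 scale missed the threshold (adjusted p = 0.160 in edgeR). The number that rose was 1 without replicate 1 at 1 week, 2 without replicate 2 or 3 at 1 week and 3 without each of the other 5 samples, and the number that fell was 10 without replicate 4 at 3 weeks.

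The MAPK pathway, which activates AP-1, showed 5 genes that rose and 4 that fell among 27 tested, with a median log2 fold change of 0.03. The share called was 33.3%, against 32.8% of all genes. The kinases Mapk13 (0.87), Mapk3 (0.84) and Mapk8 (0.52), which encode p38 delta, ERK1 and JNK1, were higher by these log2 fold changes. Map3k5 (-1.06), Nras (-0.73), Rps6ka1 (-0.43) and Rps6ka3 (-0.35) were lower. Among 14 tested feedback inhibitors of the pathway, 2 rose and 3 fell (35.7% called), with a median log2 fold change of -0.34. The phosphatase gene Dusp4 rose (1.54), and Dusp9 (-1.28), Spry1 (-0.83) and Spred1 (-0.34) fell on the log2 scale. Dusp1, a phosphatase induced together with Fos, did not pass (0.38, adjusted p = 0.365 in edgeR). Without replicate 4 at 1 week, 2 MAPK pathway genes rose and 1 fell. The number that rose was 3 without replicate 3 at 1 week and without replicate 1 or 2 at 3 weeks, and the number that fell was 2 without either of the latter samples. Of the feedback inhibitors, 1 rose without replicate 1 or 4 at 1 week, 0 fell without replicate 3 or 4 at 1 week or replicate 1 at 3 weeks, and 1 fell without either replicate 2.

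Genes known as AP-1 targets, 19 in all, had 1 that rose and 4 that fell (26.3% called, against 32.8% of all genes), with a median log2 fold change of -0.16. The urokinase gene Plau rose from 289 to 592 mean RPKM (log2 fold change 1.19, adjusted p = 0.00364 in edgeR). The stromelysin gene Mmp3 fell from 30.7 to 6.31 mean RPKM (-2.12, adjusted p = 0.00621 in edgeR) and the cyclin gene Ccnd1 from 259 to 86.1 mean RPKM (-1.42, adjusted p = 0.000712 in edgeR). Of the Ccnd1 reads, 60.9% mapped to a single place. The other 2 that fell, Sprr1b and S100a9, had overlapping groups. The number that fell was 2 without replicate 3 or 4 at 1 week and without replicate 1 or 2 at 3 weeks, and the number that rose was 3 without replicate 4 at 3 weeks. Of 9 heat shock genes, listed because stress also induces Atf3, Hspb1 rose (0.85) and Hspd1 fell (-0.70), 22.2% of those tested, and the median log2 fold change was 0.18. Only 49.4% of Hspb1 reads mapped to a single place, so its level is uncertain. Hspb1 was not called without replicate 2 or 4 at 1 week, 2 heat shock genes rose without replicate 4 at 3 weeks, and 2 fell without replicate 3 at 3 weeks.

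**Figure D4:**
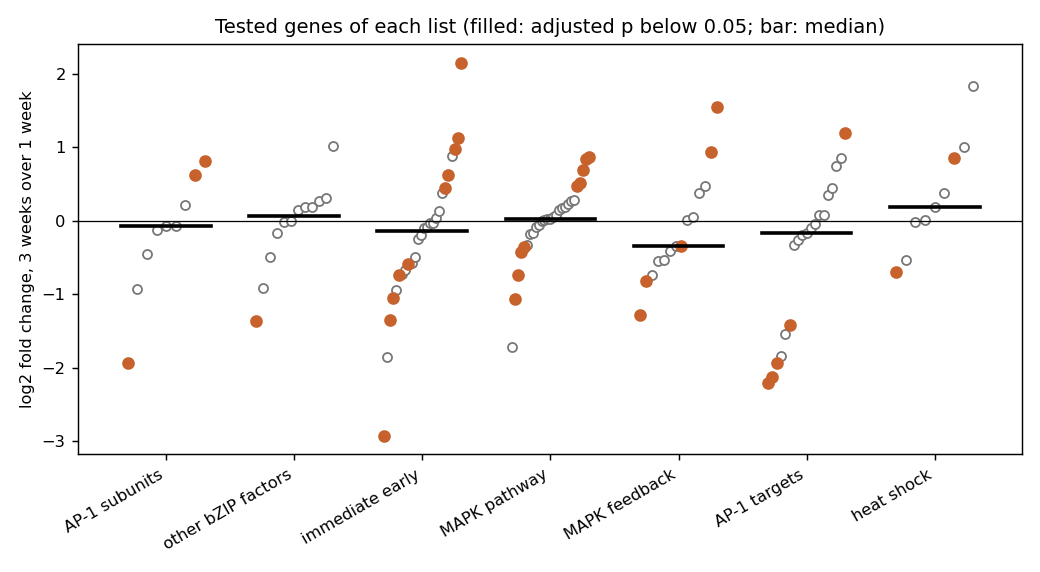
Log2 fold change (vertical axis, 3 weeks over 1 week, edgeR) of every tested gene of each list; filled points passed an adjusted p of 0.05 and black bars are medians. Each list except the other bZIP factors holds genes that rose and genes that fell, and the list medians lie between -0.34 (MAPK feedback) and 0.18 (heat shock), around the 0.03 of all genes.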

How the data were processed

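The authors prepared poly(A) libraries from KCs of 4 samples per time point, aligned the reads to GRCm38 in the CLC Genomics Workbench and deposited per-gene read counts (total exon, unique exon, gene and intron reads) together with RPKM. The annotation release and the use of strand are not given in the sources used here. RPKM carries decimal commas and was read accordingly.

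Total exon read counts were tested with edgeR 4.0.16 (filterByExpr, TMM, quasi-likelihood test, no pairing) in R 4.3.3, with Benjamini-Hochberg adjustment over all 12590 tested genes and a threshold of 0.05. The intervals use the standard error and the degrees of freedom of that test. The study describes the same batches of KCs at both times. The deposited names carry preparation numbers, of which 3 occur at both times, and these served as a block in an alternative. The deviations of the samples that share a preparation correlated at -0.227 (preparation 46), 0.200 (49) and 0.249 (90). Alternatives used limma 3.58.1, DESeq2 1.42.0 and other counts, filters, blocks or samples. The procedure was tested on simulated counts of independent samples, which does not bear on the preparations shared between the times. Figures were drawn with matplotlib 3.10.9.

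The members and the gene lists were chosen with earlier results of these data known. Every member is named. From other lists, at most 4 called genes per direction whose RPKM groups do not overlap are named, by size of change, and Egr1, Ier2, Dusp1 and Mmp3 whatever their value. Ier5, Cyr61, Rhob, Arc, Elk1 and Spred3 were called but had overlapping groups, and another gene is not reported by name here. Sprr1b, S100a9, Prdx2 and the marker genes were named after their values were seen. 1 listed leucine zipper gene was not analysed here. The titles number the samples as replicates 1 to 4 at each time, and p-values measure the spread between samples. The smallest chi-square per degree of freedom between replicates of a time was 15.5, so each was counted as a separate sample. That value does not bear on the 3 preparations that supplied samples at both times. Intervals rest on 4 samples per group.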

Additional observations from a re-analysis of the deposited data

Results flagged for a closer look

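Among 68 groups of 4 samples (34 genes at both times), 4 held a sample far from the other 3, and chance alone flags about 1 in 20 groups. None of the 9 AP-1 members was among them. Dusp1 had 37.4 RPKM in replicate 4 at 3 weeks, against 15.8 to 18.8 RPKM in the others. Dusp4 had 5.79 RPKM in the same sample, against 12.0 to 13.2 RPKM. Mapk13 had 65.8 RPKM there, against 46.3 to 49.6 RPKM. Mapk3 had 44.7 RPKM in replicate 2 at 1 week, against 50.5 to 51.6 RPKM.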

How the results depend on the processing

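Under 19 alternatives (8 that left out a sample and 11 others, of which the fit to 3 preparations without a block was chosen after seeing the data), Atf3 passed in 19, Fosl2 in 16 and Jund in 15, and 163 of the 171 member values kept their direction. The 8 that turned belong to Jun and Fosb, which never passed: Jun was 0.24 in the 3 preparations found at both times, with and without their block, and -0.21 to 0.12 with a sample left out, and Fosb was 0.059 in these preparations without their block and -0.49 to 0.12 with a sample left out. The replicate numbers of the labels matched the preparation for replicates 1 (46) and 4 (90), but not for replicates 2 and 3. Correlations between samples numbered 1 to 4 were -0.227, -0.146, -0.146 and 0.249. They cannot decide the pairing, since the shared preparation 46 itself gave -0.227. The replicate block left 1 member higher (Jund, adjusted p = 0.0589 in edgeR, did not pass), 2867 genes called in place of 4127, 3 immediate early genes higher, 3 MAPK pathway genes higher and 2 lower, and 0 heat shock genes higher. Limma at either pseudocount (0.1 or 1) gave 0 members higher and 2 lower (Atf3 and Junb), 2 other leucine zipper genes lower, 2 immediate early and 2 MAPK pathway genes higher, and 0 heat shock genes higher and 2 lower. With the preparation block Atf3 (adjusted p = 0.00687), Fosl2 (0.0197) and Jund (0.0468) passed in edgeR. This block gave 1 leucine zipper gene higher and 2 lower, 3 immediate early and 2 MAPK pathway genes higher, and 0 heat shock genes higher and 2 lower. The same preparations without the block gave 2 leucine zipper genes, 2 immediate early genes and 3 MAPK pathway genes higher, and 0 feedback and 2 heat shock genes lower. DESeq2 gave 1 leucine zipper gene and 2 heat shock genes higher. Without the filter 2 immediate early and 3 MAPK pathway genes were higher, and total gene reads and the upper quartile each gave 3 immediate early genes higher. With a sample left out, 3015 to 4861 genes were called. The numbers higher and lower were then 0 to 2 and 1 to 1 for the members, 0 to 2 and 1 to 2 for other leucine zipper genes, 1 to 3 and 4 to 10 for immediate early genes, 2 to 7 and 1 to 6 for the MAPK pathway, 1 to 2 and 0 to 3 for feedback genes, 1 to 3 and 2 to 6 for AP-1 targets, and 0 to 2 and 1 to 2 for heat shock genes. Fewer samples enter those fits, and the cause of the other shifts was not tested. With 4 samples per time, Fosl1 (-0.62 to -1.15 with a sample left out) could not be separated from no change.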

Other observations

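At 1 week 5 of the 9 members separated replicates 1 and 2 from replicates 3 and 4. The share of all genes that did so was not counted, so this number is no result about AP-1. Fos, Jun and Atf3 were higher in replicates 1 and 2 than in replicates 3 and 4, whereas Fosl1 and Fosb were lower, and Fosl2, Junb, Jund and Maff did not separate them. Fosl1 was 17.9 and 17.3 RPKM in replicates 1 and 2 and 31.8 and 28.6 RPKM in replicates 3 and 4. Over all genes, the chi-square per degree of freedom was 20.3 between replicates 1 and 2, 15.5 between replicates 3 and 4, and 47.3 to 64.7 between the other pairs at 1 week. The summed melanocyte markers were 4.76 and 3.18 RPKM in replicates 1 and 2 and 15.4 and 20.9 RPKM in replicates 3 and 4. The pattern was noticed in these samples and was not tested.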
